A study of Bos taurus with 31 samples.

Results

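The aryl hydrocarbon receptor (AHR) and CYP1 family genes were followed in liver RNA-seq counts of 31 lactating German Holstein cows. Genes were chosen by symbol from the deposited table of raw counts, and 6 of the 7 symbols on the list had a row among 24616 genes, namely AHR, ARNT, TIPARP, CYP1A1, CYP1A2 and CYP1B1. AHRR, the repressor of the family, was not analysed here. All 6 genes were among the 15916 genes tested, which had at least 20 reads summed over the cows. The cows had received a total mixed ration with glyphosate-contaminated feedstuffs (GLY groups) or a control ration (CON groups) for 16 weeks, and the concentrate feed proportion (CFP) was 60% of dry matter in high concentrate groups (HC) or 30% in low concentrate groups (LC). The groups were CONHC (control, HC, 8 cows), CONLC (control, LC, 8 cows), GLYHC (glyphosate, HC, 8 cows) and GLYLC (glyphosate, LC, 7 cows). All cows had been on the same ration before the trial, their liver was sampled by puncture biopsy in week 16, and each cow gave 1 library. The rest of the ration was maize and grass silage with some straw, so a lower CFP came with more silage, and these cannot be told apart. By the study's account, control feed carried a low background of glyphosate, and the higher feed intake of GLYHC cows gave them more of it than GLYLC cows. A biopsy is a mixture of cell types, in which fewer cells of a type and less RNA per cell cannot be told apart.

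AHR is a ligand-activated transcription factor of the bHLH-PAS family that rests in the cytoplasm in a complex with HSP90 chaperones, and it binds planar aromatic compounds from feed, combustion and tryptophan breakdown. Once a ligand is bound, AHR enters the nucleus, pairs with ARNT and switches on genes of xenobiotic metabolism, of which CYP1A1 is the classical readout. CYP1A1, CYP1A2 and CYP1B1 are cytochrome P450 enzymes that oxidize aromatic compounds and some hormones, while TIPARP and AHRR are induced by AHR and restrain it. In the liver, CYP1A2 is expressed in hepatocytes, most strongly around the central vein. CYP1A1 and CYP1A2 are neighbours in the bovine genome, with 0 other entries between them in the RefSeq annotation, and both are paralogs, so reads from stretches that they share may have been lost or misplaced when uniquely mapped reads were counted.

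CYP1A1 is the only member for which the study designed a quantitative PCR assay, and its primers are shown because they mark the transcript on which the comparison of CFP turns. By the study's account, its RNA-seq listed CYP1A1 among the genes that differed with CFP, lower in CONHC than in CONLC. The quantitative PCR assay gave an estimate of the same sign but no significant difference between these groups. Its values were not significantly correlated with the CYP1A1 read counts. The forward primer has 21 bases and the reverse primer 20, each written from its 5′ end.
CYP1A1 forward primer: ttcatccctgtcctccgttac
CYP1A1 reverse primer: attctcgtccagcctcttgt

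Libraries held from 11675775 to 36675542 counted reads, with group medians from 15639368 in CONHC to 22532845.5 in CONLC. Defining hepatocyte genes (ALB, APOA1, TTR, SERPINA1, FGB and TF) summed to between 102311 and 206537 reads per 1000000 reads of the library (CPM) in the 31 cows, which fits the label liver. One library stood apart. GLYLC cow 912 held 319 CPM of intestinal epithelium genes (FABP2, VIL1, MUC13, OLFM4 and BCO1), against 0.485 to 2.05 CPM in the other 30 cows, and FABP2, MUC13, OLFM4 and BCO1 were at 0 in 21 to 25 of the cows. Its hepatocyte sum was the lowest of the 31 cows, at 0.589 of the median of the other 6 GLYLC cows. Values without cow 912 are therefore set beside many of the results of the LC or GLY cows, and the other results of these cows include it.

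CYP1A1 was lower in cows on the high concentrate ration. The RNA levels of AHR and ARNT were not called in any comparison, and the activity of AHR in these livers was not tested. Level of CYP1A1 was 707 CPM in the lowest, 949 in the median and 1298 in the highest of the CONHC cows, with a mean of 955 ± 189 (SD, n = 8). CONLC cows ran from 1000.1 through a median of 1489.7 to 1922 CPM, with a mean of 1459 ± 256 (SD, n = 8). The CONLC cows were the higher ones, since 7 of the 8 lay above the highest CONHC cow, and only the lowest CONLC cow overlapped with them. GLYHC cows ran from 809 through 1080.4 to 1310.1 CPM, with a mean of 1055 ± 180.3 (SD, n = 8). GLYLC cows ran from 456 through 1466 to 1637 CPM, with a mean of 1318 ± 426 (SD, n = 7). Of the GLYLC cows, 5 lay above the highest GLYHC cow, and cow 912 lay below the lowest one.

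**Figure D1:**
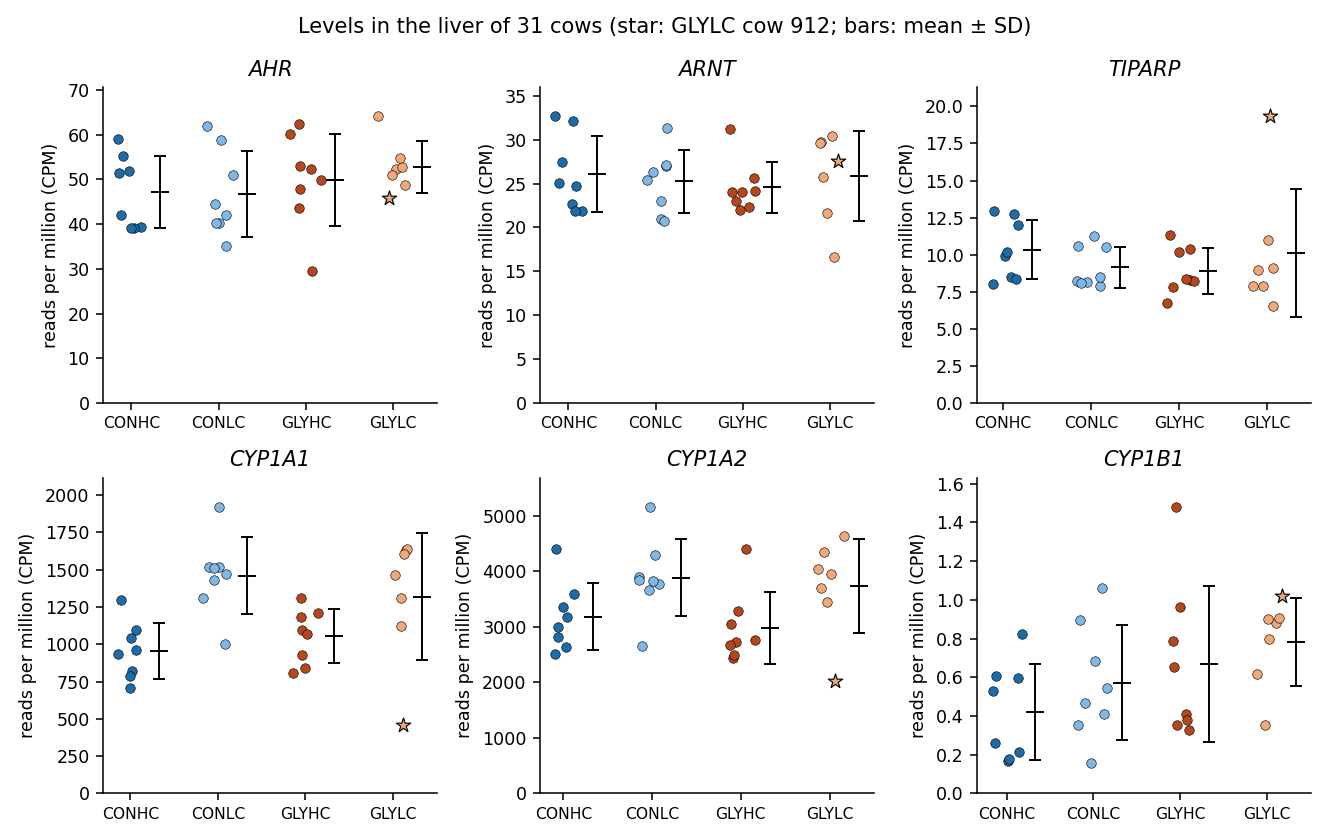
Level of each of the 6 genes in reads per 1000000 reads (CPM, y axis from 0) in the 4 feeding groups; each point is 1 cow, the star is GLYLC cow 912, and the bars beside the points are mean ± SD. Most CYP1A1 points of CONLC and GLYLC lie above those of CONHC and GLYHC, while the AHR and ARNT points of all groups overlap.

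Over all cows, CYP1A1 ran from 707 through a median of 999.7 to 1310.1 CPM in the 16 HC cows, and from 456 through 1471 to 1922 CPM in the 15 LC cows. Of the LC cows 11 lay above the highest HC cow, and 0 of the 16 HC cows reached the median of the LC cows. With treatment as a covariate, CYP1A1 fell by 27.9% in HC relative to LC cows, a log2 fold change of -0.47 (SE 0.13, 95% interval -0.73 to -0.21, Benjamini-Hochberg adjusted p = 0.0860 in edgeR's quasi-likelihood test). A gene was called at p under 0.05 and adjusted p under 0.1, and CYP1A1 was the 1 of 6 members called. Of all genes tested 1.45% were called in this comparison, 0.679% higher and 0.773% lower. CYP1A1 was rank 138 of these genes by p. The direction held in each fit that left out 1 cow, but the call was lost in 18 of the 31, with an adjusted p from 0.0168 without GLYLC cow 912 to 0.129 without GLYHC cow 152. Without cow 912 the log2 fold change was -0.55 (SE 0.09), and 0.863% of all genes were called.

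CYP1A2, which N-oxidizes aromatic amines and clears caffeine, had a negative estimate in HC relative to LC cows that did not pass the adjusted threshold with all cows. CYP1A2 ran from 2517 through 3086 to 4395 CPM in CONHC and from 2649 through 3837 to 5168 CPM in CONLC. In GLYHC it ran from 2432 through 2748 to 4406 CPM, and in GLYLC from 2024 through 3951 to 4641 CPM. The groups overlapped, yet 13 of the 15 LC cows lay above the HC median and 2 of the 16 HC cows above the LC median. Over all cows CYP1A2 had a log2 fold change of -0.31 (SE 0.10, 95% interval -0.52 to -0.09, adjusted p = 0.168 in edgeR's quasi-likelihood test), an estimate of -19.1% in HC relative to LC cows. Without GLYLC cow 912 the log2 fold change was -0.35 (SE 0.09) and the adjusted p 0.0893, which passed the threshold. Calls were also reached without GLYHC cow 37 (adjusted p = 0.0866) and without CONLC cow 260 (adjusted p = 0.0939), but in no other fit that left out 1 cow.

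CYP1B1, a CYP1 enzyme better known from tissues other than liver, was near the limit of counting. Between 2 and 28 reads per cow fell on CYP1B1, so single values carry a large counting error. Medians were 0.396 CPM in CONHC, 0.506 in CONLC, 0.531 in GLYHC and 0.882 in GLYLC, and the 31 cows ran from 0.157 to 1.48 CPM without any separation of the groups. In HC relative to LC cows CYP1B1 had a log2 fold change of -0.36 (SE 0.26, 95% interval -0.90 to 0.17, adjusted p = 0.581 in edgeR's quasi-likelihood test).

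AHR, the receptor, overlapped between HC and LC cows. Level of AHR ran from 39.2 through 46.8 to 59.1 CPM in CONHC, from 35.2 through 43.3 to 62.0 in CONLC, from 29.5 through 51.0 to 62.4 in GLYHC and from 45.8 through 52.3 to 64.2 in GLYLC. Of the 16 HC cows 8 lay above the LC median. In HC relative to LC cows the log2 fold change of AHR was -0.03 (SE 0.09, 95% interval -0.22 to 0.15, adjusted p = 0.933 in edgeR's quasi-likelihood test).

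ARNT, the partner that AHR needs to bind DNA, ran from 21.9 through 24.9 to 32.7 CPM in CONHC and from 20.7 through 25.9 to 31.4 in CONLC. In GLYHC it ran from 22.0 through 24.1 to 31.2, and in GLYLC from 16.6 through 27.6 to 30.4 CPM. No group stood apart, and both the lowest and the highest cow of the series were single cows of different groups. In HC relative to LC cows the log2 fold change of ARNT was -0.01 (SE 0.08, 95% interval -0.18 to 0.15, adjusted p = 0.975 in edgeR's quasi-likelihood test).

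TIPARP, a mono-ADP-ribosyltransferase that AHR induces and that modifies AHR in turn, ran from 8.04 through 10.1 to 12.9 CPM in CONHC and from 7.88 through 8.37 to 11.3 in CONLC. In GLYHC it ran from 6.71 through 8.32 to 11.3 CPM, and in GLYLC from 6.53 through 8.94 to 19.4 CPM. The highest value was that of cow 912, and the other 30 cows were all at or under 12.9 CPM. Its log2 fold change between HC and LC cows was 0.00 within rounding (SE 0.12, 95% interval -0.24 to 0.24, adjusted p = 0.9996 in edgeR's quasi-likelihood test), and 0.12 (SE 0.09, adjusted p = 0.660) without cow 912. CYP1A1 and CYP1A2 were the 2 of 6 members with an unadjusted p under 0.05 in this comparison, against 13.7% of all genes. The median log2 fold change of the 6 members was -0.17, against -0.01 over all genes.

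The contrast of CFP was then taken within each ration. In CON cows, CYP1A1 had a log2 fold change of -0.61 between CONHC and CONLC (SE 0.18, 95% interval -0.97 to -0.25, adjusted p = 0.438 in edgeR's quasi-likelihood test). In GLY cows, its log2 fold change between GLYHC and GLYLC was -0.32 (SE 0.18, 95% interval -0.69 to 0.05, adjusted p = 0.473). Neither passed the adjusted threshold. The CPM of 0 of the 6 members separated the groups without overlap in any of the 4 contrasts, where 0.0188% of all genes did so for CONHC and CONLC, 0.0942% for GLYHC and GLYLC, 0.00628% for GLYHC and CONHC and 0.00628% for GLYLC and CONLC. In CON cows edgeR called 0 of the 6 members, with 1 at an unadjusted p under 0.05, and 0% of all genes, with 5.96% at an unadjusted p under 0.05. In GLY cows edgeR called 0 of the 6 members, with 1 at an unadjusted p under 0.05 (CYP1A2), and 0.201% of all genes, with 12.5% at an unadjusted p under 0.05. DESeq2, which the study also used, called CYP1A1 on CONHC and CONLC alone (log2 fold change -0.61, adjusted p = 0.00475). Over the alternatives other than omissions, however, the adjusted p ran up to 0.528.

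Cow 912 weighed on both contrasts. In GLY cows it entered the log2 fold change itself, and in CON cows it entered through the 1 estimate of the spread that the 4 groups share. Without it, CYP1A1 was called in CON cows, with a log2 fold change of -0.61 (SE 0.13) and an adjusted p of 0.0988 in edgeR's quasi-likelihood test, where 0.0444% of all genes were called. In GLY cows the log2 fold change without cow 912 was -0.47 (SE 0.14, adjusted p = 0.394), where 0% of all genes were called. CYP1A2 had a log2 fold change of -0.29 (SE 0.15, adjusted p = 0.834) between CONHC and CONLC and of -0.33 (SE 0.15, adjusted p = 0.371) between GLYHC and GLYLC. Without cow 912 the latter was -0.43 (SE 0.14, adjusted p = 0.417). The other 4 members had log2 fold changes from -0.46 (CYP1B1, SE 0.38) to 0.17 (TIPARP, SE 0.16) in CON cows and from -0.28 (CYP1B1, SE 0.37) to -0.07 (ARNT, SE 0.12) in GLY cows. In GLY cows TIPARP was at -0.18 (SE 0.17) with all cows and at 0.06 (SE 0.13) without cow 912.

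**Figure D2:**
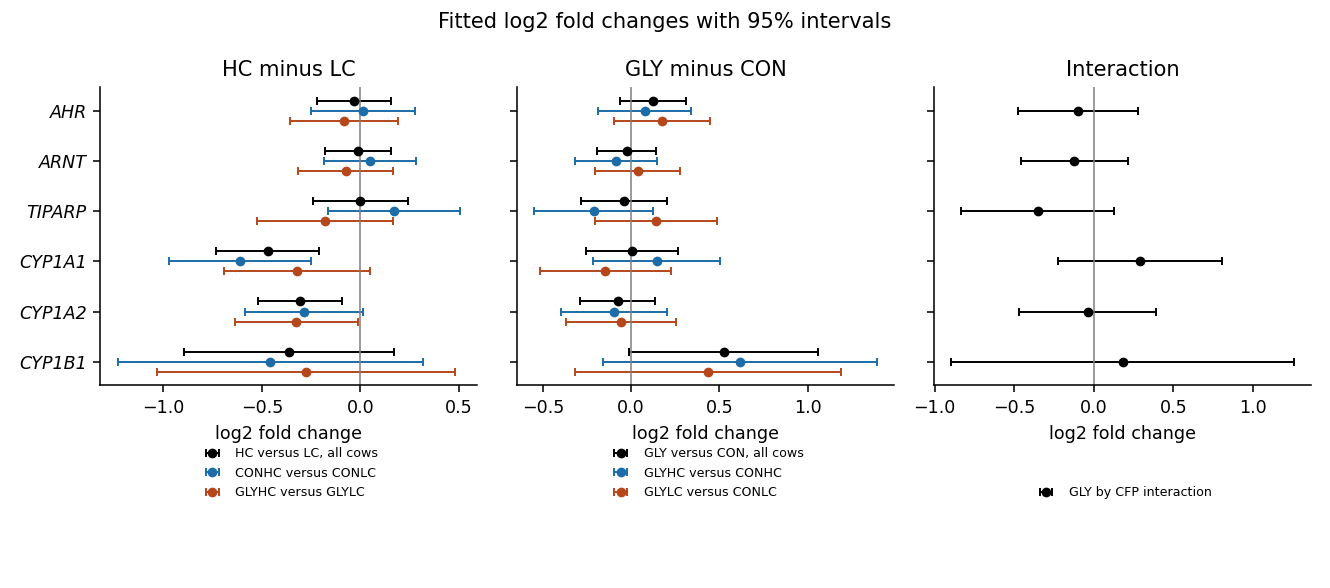
Fitted log2 fold change of each of the 6 genes (x axis) with its 95% interval, for HC minus LC (left), GLY minus CON (middle) and the interaction of GLY with CFP (right); black marks all cows, and colours mark the contrasts within 1 ration or 1 CFP. The intervals of CYP1A1 and CYP1A2 over all cows lie below 0 for HC minus LC, and each interval for GLY minus CON and the interaction includes 0.

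Whether the CFP difference itself depended on glyphosate was tested by the interaction. CYP1A1 had an interaction of 0.29 on the log2 scale (SE 0.25, 95% interval -0.23 to 0.81, adjusted p = 0.999 in edgeR's quasi-likelihood test), and 0.14 (SE 0.19) without cow 912. For CYP1A2 the interaction was -0.04 (SE 0.21, 95% interval -0.47 to 0.39), and -0.15 (SE 0.19) without cow 912. For TIPARP it was -0.35 (SE 0.24, 95% interval -0.84 to 0.13), and -0.11 (SE 0.18) without cow 912. None of the 6 members was called by edgeR, 0 had an unadjusted p under 0.05, and 0% of all genes were called, with 4.21% at an unadjusted p under 0.05. DESeq2 on all cows called 0 members as well. The intervals leave room for a CFP difference of CYP1A1 that is up to 0.81 weaker on the log2 scale, or 0.23 stronger, in GLY than in CON cows.

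Exposure to glyphosate was the second comparison, and no member was called. In GLY against CON cows edgeR called 0 of the 6 members and 0% of all genes, with 0 members and 3.92% of all genes at an unadjusted p under 0.05, and DESeq2 on all cows also called 0 members. CYP1A1 had a log2 fold change of 0.00 (SE 0.13, 95% interval -0.26 to 0.26, adjusted p = 0.9999 in edgeR's quasi-likelihood test), and 0.08 (SE 0.09) without cow 912. CYP1A1 in GLY cows thus lay between 0.26 lower and 0.26 higher on the log2 scale within the interval. CYP1A2 had a log2 fold change of -0.08 (SE 0.10, 95% interval -0.29 to 0.13), and -0.03 (SE 0.09) without cow 912. TIPARP had a log2 fold change of -0.04 (SE 0.12, 95% interval -0.29 to 0.21), and -0.16 (SE 0.09) without cow 912.

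AHR had a log2 fold change of 0.13 (SE 0.09, 95% interval -0.06 to 0.31, adjusted p = 0.9999 in edgeR's quasi-likelihood test) in GLY against CON cows. Although 14 of the 15 GLY cows lay above the CON median of 43.3 CPM, the remaining GLY cow was the lowest of the series at 29.5 CPM, and the ranges of both groups overlapped. CYP1B1 had the largest estimate of the members, with a log2 fold change of 0.52 (SE 0.26, 95% interval -0.01 to 1.06, adjusted p = 0.9999), on the few reads given above. In ARNT the log2 fold change was -0.03 (SE 0.08, 95% interval -0.19 to 0.14).

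Within each CFP, glyphosate gave the same picture of intervals that include 0. GLYHC against CONHC and GLYLC against CONLC share no cows with each other. Between GLYHC and CONHC, edgeR called 0 members and 0% of all genes, with 0 members and 2.92% of all genes at an unadjusted p under 0.05. Between GLYLC and CONLC, it called 0 members and 0.0628% of all genes, with 0 members and 5.65% of all genes at an unadjusted p under 0.05. DESeq2 called 0 members in either contrast, on all cows or on the compared groups alone. CYP1A1 had a log2 fold change of 0.14 (SE 0.17, 95% interval -0.21 to 0.50) at HC and of -0.15 (SE 0.18, 95% interval -0.52 to 0.22) at LC, which was 0.01 (SE 0.14) without cow 912. TIPARP had a log2 fold change of -0.21 (SE 0.16, 95% interval -0.55 to 0.12) at HC and of 0.14 (SE 0.17, 95% interval -0.20 to 0.49) at LC, which was -0.10 (SE 0.13) without cow 912.

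**Figure D3:**
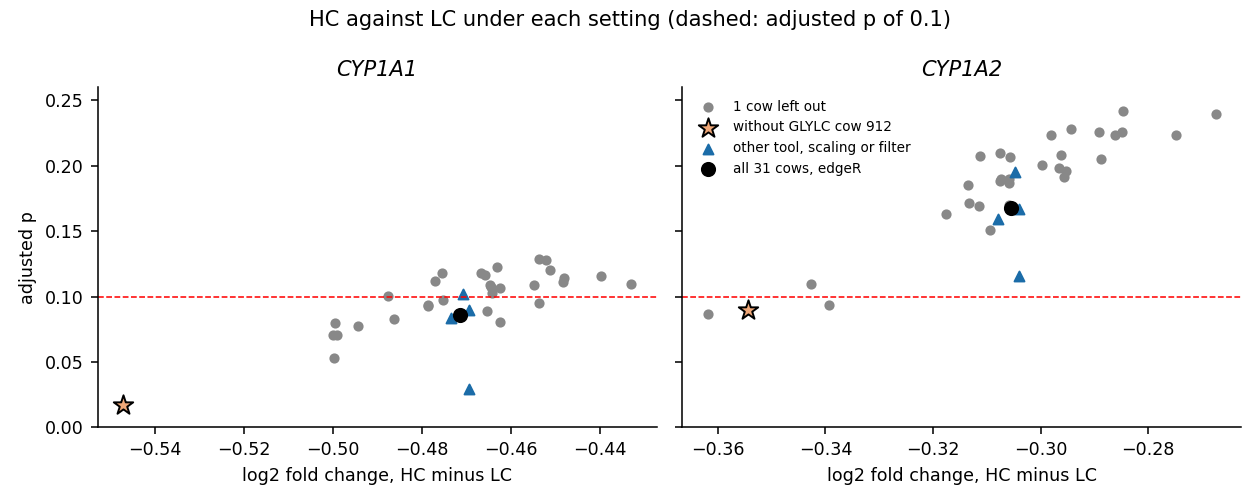
CYP1A1 (left) and CYP1A2 (right) in HC against LC over all cows, with the log2 fold change on the x axis and the adjusted p on the y axis; each grey point leaves out 1 cow, the star leaves out GLYLC cow 912, triangles use another tool, scaling or filter, and the dashed line is an adjusted p of 0.1. All points lie below 0 on the x axis, from -0.55 to -0.43 for CYP1A1 and from -0.36 to -0.27 for CYP1A2, while both genes have points on either side of the line.

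GLYLC cow 912 was the lowest or highest of the 31 cows in 3 of the 6 members. CYP1A1 was 456 CPM in this cow, 0.297 of the median of the other 6 GLYLC cows and below the next lowest of all cows at 707 CPM. CYP1A2 was 2024 CPM, 0.507 of that median and the lowest of the 31 cows. TIPARP was 19.4 CPM, 2.30 times that median and the highest of the 31 cows. Within GLYLC it was also the lowest cow for AHR, at 45.8 CPM against 48.8 in the next, and the highest for CYP1B1, at 1.02 CPM against 0.908 in the next. ARNT was at 0.997 of the median of the other GLYLC cows. Beside the hepatocyte sum at 0.589 of that median, the sum of pericentral hepatocyte genes (GLUL, CYP2E1, OAT, SLC1A2, RHBG, LGR5, AXIN2 and TBX3) was 0.383 of it and that of periportal hepatocyte genes (HAL, SDS, GLS2, ASS1, CPS1 and PCK1) was 0.490 of it, each the lowest of the 31 cows. By median over the 31 cows, the pericentral sum was mostly CYP2E1 (5599 CPM, with GLUL next at 202 CPM). The periportal sum was mostly CPS1 (4058 CPM), PCK1 (3506 CPM) and ASS1 (1581 CPM). The part of these sums in the levels of CYP1A1, CYP1A2 and TIPARP was not tested.

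Cell type markers were set beside the difference of CYP1A1 between HC and LC cows. Of the 6 hepatocyte, 8 pericentral and 6 periportal genes 0 were called, with 1 hepatocyte gene (TF, 0.24, SE 0.09) and 1 pericentral gene (GLUL, -0.35, SE 0.16, adjusted p = 0.330 in edgeR's quasi-likelihood test) at an unadjusted p under 0.05. Without cow 912, those under 0.05 were APOA1 (0.49, SE 0.16), TF (0.19, SE 0.07), SERPINA1 (-0.16, SE 0.07) and GLUL (-0.36, SE 0.17). None of them was called, and ALB, TTR and FGB were not under 0.05. Pericentral sums, mostly CYP2E1, ran from 4717 to 7962 CPM in CONHC and from 3913 to 6874 in CONLC. They ran from 4407 to 9470.1 in GLYHC and from 2503 to 7055 in GLYLC, and the groups overlapped. All 5 of the stellate cell and fibroblast genes had negative values at p under 0.05, which held for 3 of them without cow 912 (COL1A1, COL3A1 and DCN). DCN was called, with a log2 fold change of -0.50 (SE 0.10, adjusted p = 0.0275 in edgeR's quasi-likelihood test). Their sums ran from 131 to 207 CPM in CONHC, from 124 to 1617 in CONLC, from 86.9 to 174 in GLYHC and from 152 to 273 in GLYLC, where 1617 was 1 cow.

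Of 5 Kupffer cell and macrophage genes CD68 was called, with a log2 fold change of 0.61 (SE 0.17, adjusted p = 0.0948 in edgeR's quasi-likelihood test), and this call was lost without cow 912 (adjusted p = 0.137). The list went both ways. CSF1R was at 0.36 (SE 0.13) and CD14 at -0.18 (SE 0.08), both at an unadjusted p under 0.05. CD163 was at 0.15 (SE 0.13) and MARCO at -0.08 (SE 0.28). CD14 was at -0.15 (SE 0.08) without cow 912, where its unadjusted p was not under 0.05. Sums of this list ran from 365 to 587 CPM in CONHC, from 349 to 519 in CONLC, from 372 to 562 in GLYHC and from 357 to 558 in GLYLC. In the bile duct (4 genes tested), endothelium (5 genes) and T, NK and B cell (6 genes) lists 0 genes were called and 0 had an unadjusted p under 0.05 in this comparison. Of the 5 intestinal genes tested 4 were called lower in HC cows, on the reads of cow 912. The part of these cell types in the difference of CYP1A1 was not tested.

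Other genes of the pathway were read from 5 lists. In the list of the AHR complex and its partners (8 genes tested), 1 was called lower in HC than in LC cows and 3 had a p under 0.05, all 3 chaperones that hold AHR in the cytoplasm, where 1.45% of all genes were called and 13.7% had a p under 0.05. PTGES3, the p23 cochaperone, ran from 149 through 189 to 229 CPM in HC cows and from 179 through 219 to 289.8 CPM in LC cows. It fell by 14.6% in HC cows, a log2 fold change of -0.23 (SE 0.06, adjusted p = 0.0918 in edgeR's quasi-likelihood test), although the ranges overlapped. HSP90AB1 and HSP90AA1, the HSP90 isoforms, had log2 fold changes of -0.23 (SE 0.07, adjusted p = 0.132) and -0.23 (SE 0.08, adjusted p = 0.201). The median of the list was -0.05, against -0.01 over all genes. Without cow 912 PTGES3 had a log2 fold change of -0.19 (SE 0.06, adjusted p = 0.137) and was not called.

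Of 11 other genes of the AHR target battery 10 had a row, 8 were tested and 0 were called by edgeR in HC against LC cows, with 3 at an unadjusted p under 0.05 and 0 called by DESeq2. NQO1, a quinone reductase, ran from 23.6 through 32.3 to 42.1 CPM in HC cows and from 25.5 through 39.4 to 67.1 in LC cows, with a log2 fold change of -0.28 (SE 0.11, adjusted p = 0.234 in edgeR's quasi-likelihood test). IGFBP1, which binds insulin-like growth factors, had a log2 fold change of -0.56 (SE 0.24, adjusted p = 0.278), and SLC7A5, an amino acid transporter, of -0.98 (SE 0.40, adjusted p = 0.261). SLC7A5 reached 8.80 CPM in its highest LC cow against a median of 0.639, and without GLYLC cow 912 its log2 fold change was -0.12 (SE 0.30, adjusted p = 0.931 in edgeR's quasi-likelihood test). The median of the list was -0.11.

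**Figure D4:**
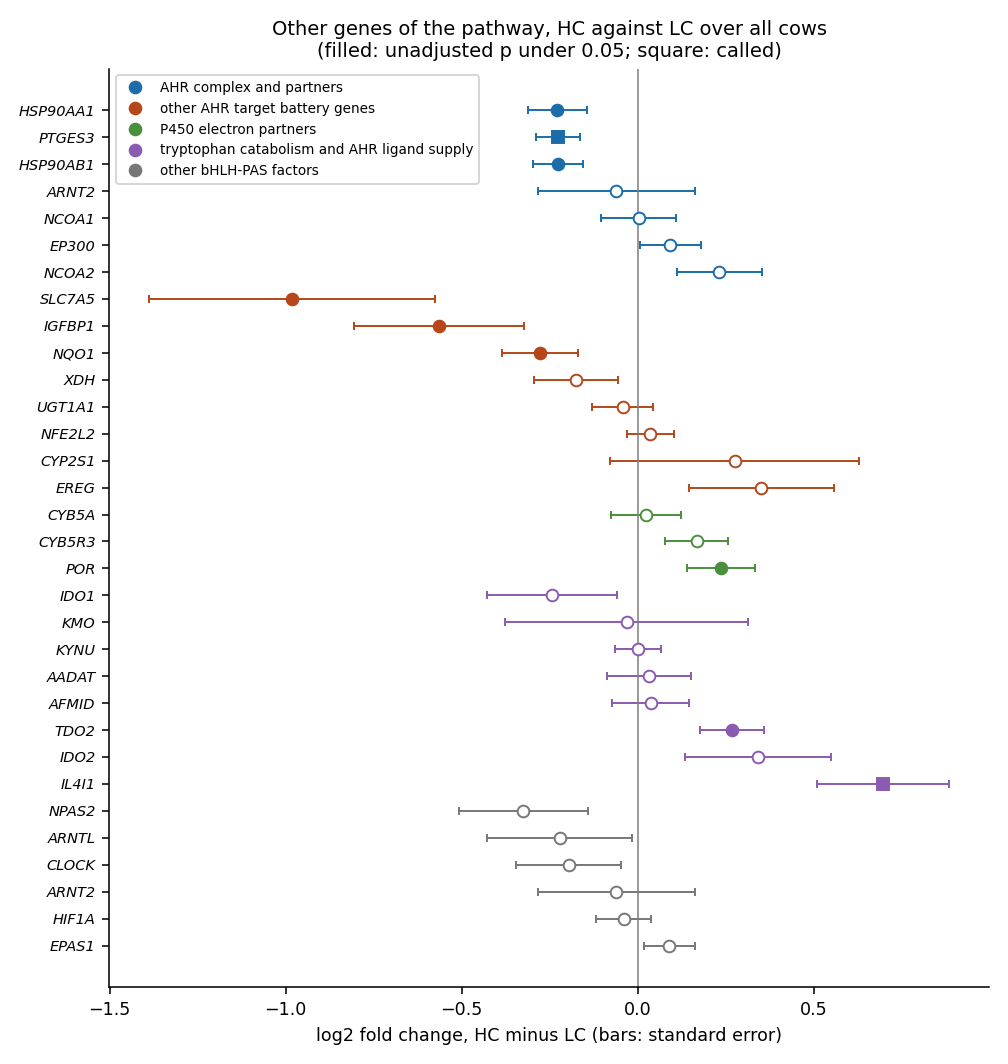
Log2 fold change between HC and LC cows (x axis, bars are standard errors) of tested genes of the 5 pathway lists, coloured by list; filled points have an unadjusted p under 0.05 and squares are called. PTGES3 lies at -0.23 and IL4I1 at 0.70, and the other genes shown are not called.

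Of the 3 partners that hand electrons to P450 enzymes 0 were called, and POR, the reductase that serves CYP1 enzymes, had a log2 fold change of 0.24 (SE 0.10, adjusted p = 0.257 in edgeR's quasi-likelihood test). POR therefore had the opposite sign to CYP1A1 and CYP1A2, without passing the threshold. Of the 8 genes of tryptophan catabolism, whose products include AHR ligands, 1 was called higher. IL4I1, an amino acid oxidase that makes indole ligands of AHR, ran from 0.223 through 0.783 to 1.39 CPM in HC cows and from 0.298 through 0.475 to 0.925 in LC cows. It rose in HC cows with a log2 fold change of 0.70 (SE 0.19, adjusted p = 0.0860 in edgeR's quasi-likelihood test), and without cow 912 this was 0.69 with an adjusted p of 0.116. At these levels IL4I1, like CYP1B1, was near the limit of counting, so single values carry a large counting error. TDO2, which opens the tryptophan ring in hepatocytes, ran from 304 through 349 to 429 CPM in HC cows and from 167 through 314 to 385 in LC cows, with a log2 fold change of 0.27 (SE 0.09, adjusted p = 0.169). In the list of other bHLH-PAS factors (6 genes tested, 1 of them also in the AHR complex list) 0 were called and 0 had a p under 0.05.

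In GLY against CON cows edgeR called 0 genes of the 5 lists, and DESeq2 on all cows also called 0. A single gene had an unadjusted p under 0.05, ARNTL, the clock factor that pairs with CLOCK, with a log2 fold change of -0.55 (SE 0.21, adjusted p = 0.968 in edgeR's quasi-likelihood test). ARNTL ran from 1.64 through 3.21 to 9.11 CPM in GLY cows and from 2.01 through 4.86 to 8.16 in CON cows. NQO1 had a log2 fold change of -0.15 (SE 0.11), POR of 0.04 (SE 0.10) and TDO2 of 0.01 (SE 0.09).

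The members were then compared across cows, with each cow's log2 CPM (prior count 2) centred on its group mean so that feeding did not enter. CYP1A1 and CYP1A2 varied together, with Pearson's r of 0.79 and Spearman's rho of 0.74 over 31 cows (two-sided permutation tests of 100000 resamples, p = 2.0e-05 for each, the smallest this test can give, and Benjamini-Hochberg adjusted p = 0.000300 over 15 pairs). Within the groups r was 0.70 in CONHC, 0.71 in CONLC, 0.53 in GLYHC and 0.98 in GLYLC. Cow 912 was low for both genes, and without it r over 30 cows was 0.66 (permutation test, adjusted p = 0.00120). Without the 2 cows farthest from the median of CYP1A1, cow 912 among them, r was 0.71. Both genes share library, depth and the makeup of the biopsy.

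**Figure D5:**
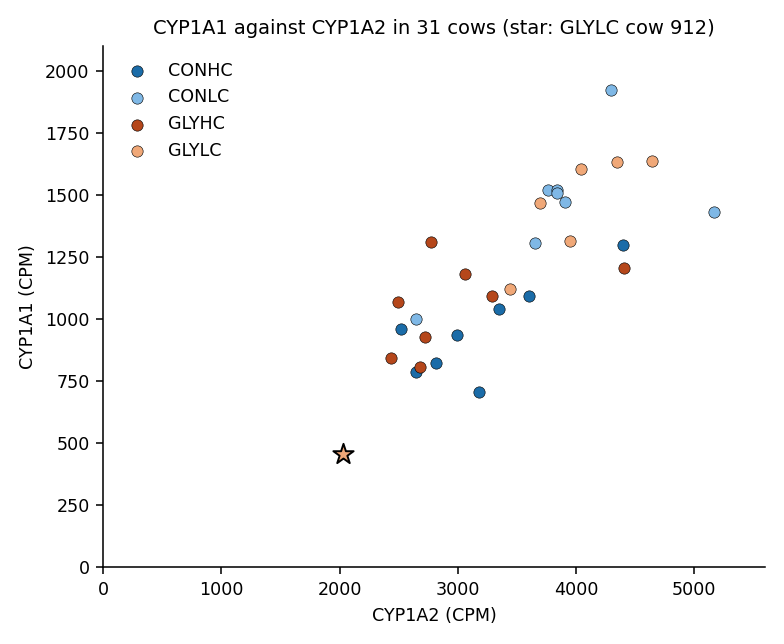
CYP1A1 (y axis) against CYP1A2 (x axis) in reads per 1000000 reads (CPM) in 31 cows, coloured by group, with both axes from 0; the star is GLYLC cow 912. Cows high for CYP1A2 were mostly high for CYP1A1, and cow 912 is lowest for both at 2024 and 456 CPM.

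AHR and ARNT also varied together, with r of 0.51 and rho of 0.57 (permutation tests, p = 0.00366 and 0.00104, adjusted p = 0.0274 and 0.00780 over 15 pairs). Within the groups r was 0.75 in CONHC, 0.63 in CONLC, 0.63 in GLYHC and 0.19 in GLYLC, and it was 0.48 without the 2 cows farthest from the median of AHR, where its adjusted p was 0.0564. AHR and CYP1A1, receptor and target, had r of 0.35 and rho of 0.35 (permutation tests, p = 0.0565 and 0.0567, adjusted p = 0.170 and 0.284), with within-group values of 0.37, 0.40, 0.41 and 0.56 in the order CONHC, CONLC, GLYHC and GLYLC and 0.29 without the 2 farthest cows. That pair did not pass the threshold. CYP1A1 and TIPARP had r of -0.43 but rho of -0.09 (permutation tests, p = 0.0248 and 0.647, adjusted p = 0.0946 and 0.846). This relation rested on cow 912, since r was 0.15 without it. The genes of each of these pairs also share library, depth and the makeup of the biopsy.

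The number of CYP1A1 reads divided by that of CYP1A2 reads in the same library needs no scaling between cows. It was 0.302 ± 0.0431 in CONHC (SD, n = 8), 0.379 ± 0.0489 in CONLC (SD, n = 8), 0.360 ± 0.0657 in GLYHC (SD, n = 8) and 0.344 ± 0.0594 in GLYLC (SD, n = 7). The ratio was lower in CONHC than in CONLC by more than either SD, but the ranges overlapped (0.222 to 0.381 and 0.277 to 0.447). In GLY cows the mean was higher in GLYHC and the median was higher in GLYLC, at medians of 0.344 for GLYHC and 0.353 for GLYLC. That order of the means rested on cow 912, whose ratio was 0.225, where the next GLYLC cow had 0.325. These ratios are a description and were not tested.

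Spread between cows of 1 group differed among the members. The within-group SD of log2 CPM was 0.23 for ARNT, 0.27 for AHR, 0.30 for CYP1A2, 0.32 for TIPARP, 0.39 for CYP1A1 and 0.65 for CYP1B1, against a median of 0.27 over the 11835 genes with a mean of at least 1 CPM. CYP1A1 was thus more variable than the median gene, with 75.2% of these genes below it, and ARNT less, with 39.1% below it.

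Genes whose pattern over the 31 cows was most like that of a member are given as a description, by Pearson's r of group-centred log2 CPM over 11144 other named genes with a mean of at least 1 CPM (11145 for CYP1B1). Nearest to CYP1A1 were TANC1 (0.88), FGF12 (0.86), FAM149A (0.84), DTL (0.84) and MTHFD1 (0.83), and CYP1A2 was rank 23. Farthest were HOPX (-0.89), TSNAX (-0.83), ADSS (-0.83), ABCA3 (-0.82) and CCL24 (-0.82). Without cow 912 these 10 values shrank to between 0.54 and 0.71 and between -0.72 and -0.56. Nearest to CYP1A2 were ALB (0.83), FAM149A (0.82) and RAB11FIP4 (0.82), with CYP1A1 at rank 6.

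For the receptor AHR the nearest genes were NR3C1 (0.75), the glucocorticoid receptor, UBR1 (0.75) and ITSN1 (0.73), and ARNT was rank 556. For ARNT they were KMT2E (0.89), NFAT5 (0.86) and CHD6 (0.85), with AHR at rank 954. For TIPARP they were TSC22D2 (0.74), RASGEF1B (0.74) and UBE2J1 (0.73), which fell to 0.52, 0.60 and 0.49 without cow 912. CYP1B1 had CHST15 (0.65), MEX3C (0.65) and ZFP57 (0.63) nearest, on its few reads. Such values share library, depth and tissue makeup.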

How the data were processed

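RNA from liver biopsies of 31 cows was sequenced, each cow being a separate animal with 1 library. Per the labels and the methods, the authors ran FastQC, then Trim Galore (Phred score of at least 20, length of at least 30 nt), HISAT2 2.1.0 against UMD3.1, and HTSeq 0.8.0 for the count of uniquely mapped reads on each gene. The deposited raw counts per gene were used, and a deposited table of normalized values was not used. Libraries were stranded, and whether HTSeq counted by strand is not given in the sources used here. No gene coordinates are printed, since the annotation at hand is of another build. Here, differences were tested on these counts in R 4.3.3 with edgeR 4.0.16 (TMM, quasi-likelihood F test, Benjamini-Hochberg adjustment over 15916 genes). All 31 cows entered 1 model of the 4 groups, and an additive model of treatment and CFP gave the comparisons over all cows. CPM were scaled by TMM factors. The SE is the absolute log2 fold change over the root of F, and the 95% intervals are built from it. DESeq2 1.42.0 was an alternative, beside another scaling, other filters, fits of the compared groups alone and each cow left out. Correlations used Python 3.11.15 with scipy 1.17.1, and figures used matplotlib 3.10.9.

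No pair of same-group libraries was a duplicate. The members, marker and pathway lists were chosen with earlier results of these data known. Named were all members, pathway genes with a p under 0.05 in HC against LC or GLY against CON over all cows, NQO1, POR and TDO2 whatever their values, the 5 genes most and 5 least like CYP1A1 and the 3 most like each other member. By this rule 1 further gene would be named and is not reported here. Marker genes were named after their values were seen. The edgeR fits for HC against LC cows and for the interaction were also run on simulated counts, and the other steps were not. Intervals give the uncertainty of an estimated log2 fold change, given the spread between cows, and not the range of single cows.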

Additional observations from a re-analysis of the deposited data

Results flagged for a closer look

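In each group, values of the 6 genes and of the ratio of CYP1A1 to CYP1A2 reads were searched for a cow far from the rest of its group. Of 28 such sets 4 had one, where chance gives about 1 in 20 sets. GLYLC cow 912 had the highest TIPARP level of its group at 19.4 CPM, where the next cow had 11.0 CPM. The same cow had the lowest ratio of CYP1A1 to CYP1A2 reads of its group at 0.225, where the next cow had 0.325. GLYHC cow 32 had the highest ARNT level of its group at 31.2 CPM, where the next cow had 25.6 CPM. GLYHC cow 37 had the highest CYP1A2 level of its group at 4406 CPM, where the next cow had 3287 CPM.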

How the results depend on the processing

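The log2 fold change of CYP1A1 and of CYP1A2 between HC and LC cows kept its sign in each setting tried, whereas the call of CYP1A1 did not. With no filter on low counts more genes were tested, 0 members were called (CYP1A1 adjusted p = 0.102 in edgeR's quasi-likelihood test) and TIPARP had a log2 fold change of 0.00021. With DESeq2 on all cows CYP1A1 had an adjusted p of 0.0291. Members called with 1 cow left out ran from 0 to 2 in HC against LC cows and from 0 to 1 in CONHC against CONLC. DESeq2 on CONHC and CONLC alone called 1 member there. The CYP1A1 call was lost on leaving out any 1 of GLYHC cows 32, 117, 127, 152, 154 and 159, GLYLC cows 42 and 209, CONHC cows 41, 133, 144, 170 and 208 and CONLC cows 60, 103, 145, 259 and 941. PTGES3 and IL4I1, added after the data were seen, were each called in 16 of 35 alternatives. HSP90AB1 was called in 2 of the 35, with an adjusted p of 0.0862 in DESeq2 and of 0.0353 in edgeR with 1 cow left out. TDO2 was called in 1 of the 35 (adjusted p = 0.0983 in edgeR with 1 cow left out). With 1 cow left out, the log2 fold change changed sign for the members and comparisons that follow. For AHR the range was -0.0594 to 0.00722 in HC against LC and -0.0380 to 0.0839 in CONHC against CONLC. For ARNT it was -0.0448 to 0.0117 in HC against LC, -0.00664 to 0.0989 in CONHC against CONLC, -0.0517 to 0.0111 in GLY against CON and -0.00650 to 0.120 in GLYLC against CONLC. For CYP1A1 it was -0.0281 to 0.0824 in GLY against CON and -0.206 to 0.00861 in GLYLC against CONLC. For CYP1A2 it was -0.119 to 0.0537 in GLYLC against CONLC and -0.147 to 0.0487 in the interaction, and for CYP1B1 -0.0617 to 0.386 in the interaction. For TIPARP it was -0.0372 to 0.119 in HC against LC, -0.263 to 0.0576 in GLYHC against GLYLC and -0.0964 to 0.222 in GLYLC against CONLC. Among correlations, 1 pair in place of 2 passed without the 2 farthest cows, where Pearson's r was 0.00104 for AHR and CYP1B1, -0.101 for AHR and TIPARP, 0.0708 for CYP1A1 and CYP1B1, 0.162 for CYP1A1 and TIPARP and 0.0204 for CYP1A2 and TIPARP. Without centring r was 0.0739 for AHR and CYP1B1 and 0.0406 for CYP1A1 and CYP1B1, and without cow 912 it was 0.00315 for CYP1A1 and CYP1B1 and 0.153 for CYP1A1 and TIPARP. Beyond these, the cause of the changes was not tested. No paired analysis was possible because the cow numbers name single animals and no number stands in more than 1 group. Depth limits CYP1B1 most, with 2 to 28 reads per cow.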
